A study of Mus musculus with 12 samples.

Results

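The complement components and regulators described here were 9 genes, C1qa, C1qb, C1qc, C4b, C3, Cfb, Cfp, Cfi and C3ar1, out of 34844 gene names on a mouse expression array. A member was any gene whose name in the scanner output was 1 of these 9 symbols. All 9 passed the filter on dim probes, as did 18021 gene names in all. Cfi was put on the list because its signal had been seen to rise from background in both mutants, so its values against control are given as a description with no test.

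Left ventricular RNA of 12 mice, all 6 months old, was hybridised to 1-colour Agilent arrays, with 1 mouse per array and 4 arrays in each of 3 groups. The mutants carried a floxed Nkx2-5 allele (Floxed-Nkx2-5-∆Neo) together with Cx40-creERT2, a tamoxifen-inducible Cre recombinase driven by the Cx40 gene. Nkx2-5 is a cardiac transcription factor, and the gap junction protein Cx40 marks the developing trabecular myocardium, the conduction system, the atria and arterial endothelium. In Nkx2-5ΔTrbE10 mice (TrbE10 here, labelled Nkx2-5Δtrab) tamoxifen was given to the pregnant mothers on E10.5 and E11.5. In Nkx2-5ΔTrbE14 mice (TrbE14, labelled Nkx2-5Δcomp) it was given on E13.5 and E14.5. The control mice carried the floxed allele on both chromosomes and no Cre according to the methods, which call them littermates, and were not injected according to the labels. Newborns of tamoxifen-treated mothers were delivered by caesarean section and raised by CD1 foster mothers, which would include the controls if they were littermates. Both mutants differed from control by Cre as well, and by tamoxifen according to the labels. These differences and the loss of Nkx2-5 cannot be told apart in either comparison with control. The tissue was the free wall with the apex and without the septum. The 12 arrays lay on 2 slides, scanned in 2 sessions: slide 1 held control and TrbE14 mice, and slide 2 held the TrbE10 mice, so that a slide effect and the TrbE10 genotype cannot be told apart, whereas TrbE14 and control mice were compared within 1 slide.

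The 75th percentile of the processed signal lay between 194.6 and 249.5 over the 12 arrays, between 22880 and 26140 probes were well above background, and no spot was saturated. Nkx2-5 itself was 0.66 lower on the log2 scale in TrbE10 mice (standard error, SE, 0.14, adjusted p = 0.0459) and 0.59 lower in TrbE14 mice (SE 0.14, adjusted p = 0.106), with every mutant array below every control array. All 10 cardiomyocyte markers were measured, and none was called changed in either mutant.

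Complement is a cascade of plasma and tissue proteins that tags particles and dying cells for removal. The classical pathway starts when C1q, a hexamer built from the products of C1qa, C1qb and C1qc, binds its target, and it proceeds through C4. The alternative pathway is kept running by factor B (Cfb) and is stabilised by properdin (Cfp). Both lead to cleavage of C3, whose fragment C3a acts on the receptor C3ar1. Factor I (Cfi) is the protease that cuts C3b and C4b and so stops the cascade. Much circulating complement is made by the liver, while C1q is made largely by macrophages, which also reside in cardiac muscle.

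Promoter windows were available for 5 of the 9 members in the RefSeq table used, Cfp, C1qb, C1qc, C3 and C3ar1. C1qb and C1qc are neighbours on chromosome 4 and share a pathway step, and the pair is shown together with Vsig4, the complement receptor with the largest change. Each sequence covers bases 250 to 51 before the annotated start, on the strand of the gene, in GRCm38.p6. C1qb lies at chr4:136886251-136886450 (minus strand), C1qc at chr4:136892965-136893164 (minus strand) and Vsig4 at chrX:96293489-96293688 (minus strand). Capitals mark matches, on either strand, to 1 of 6 motifs: PU.1 (GAGGAANT), NKX2-5 (TNAAGTG), IRF (GAAA, any 2 bases, GAAA), GAS (TTCNNNGAA), C/EBP (TTNNGNAA) and NF-kB (GGGA, any 4 bases, CC).
C1qb: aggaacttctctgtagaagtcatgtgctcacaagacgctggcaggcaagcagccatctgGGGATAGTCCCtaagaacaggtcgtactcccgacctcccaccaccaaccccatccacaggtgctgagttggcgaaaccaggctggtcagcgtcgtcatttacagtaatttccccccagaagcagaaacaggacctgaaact
C1qc: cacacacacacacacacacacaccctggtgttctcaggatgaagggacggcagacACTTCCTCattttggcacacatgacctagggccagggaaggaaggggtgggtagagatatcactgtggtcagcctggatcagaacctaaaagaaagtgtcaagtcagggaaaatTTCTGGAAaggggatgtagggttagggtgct
Vsig4: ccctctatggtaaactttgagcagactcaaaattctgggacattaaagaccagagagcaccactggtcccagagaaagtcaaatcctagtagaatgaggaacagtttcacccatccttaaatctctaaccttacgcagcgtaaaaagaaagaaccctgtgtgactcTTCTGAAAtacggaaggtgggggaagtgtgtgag

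In C1qb the capitals are 2 overlapping NF-kB matches, a motif found in 13.8% of the 32851 windows of this length. In C1qc they are a PU.1 match read on the opposite strand (195 to 188 bases before the start) and a C/EBP match, motifs found in 4.59% and 32.3% of all windows. The only match in Vsig4 is to the C/EBP motif. PU.1 is a transcription factor of macrophages and other myeloid cells. None of these letters matched the NKX2-5 motif, which 8.36% of all windows hold, and among the member windows Cfp and C3ar1 had no match to any of the 6 motifs. The windows of the complement genes Cfhr2, Colec11 and Vtn were read too. That of Vtn held an NKX2-5 match on the opposite strand, 140 to 134 bases before the start, and those of Cfhr2 and Colec11 held none. A match describes letters only.

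The C1q genes were higher in TrbE10 mice. C1qa and C1qc rose 1.65-fold and 1.79-fold over control, each by limma with an adjusted p under the threshold of 0.05, and C1qb was 1.53-fold higher without passing it. In TrbE14 mice the corresponding ratios were 1.44, 1.42 and 1.16, and none passed. Of the 8 members other than Cfi, these 2 were the members called higher in TrbE10 mice and none was called in TrbE14 mice by limma. Over all genes tested 1.28% and 0.533% were called higher. In TrbE14 mice 3 of the 8 had an unadjusted limma p under 0.05, where 3340 of all 24593 probes did. SAM called C1qc there, among 326 probes in all. In bulk tissue, more cells of a type and more RNA per cell cannot be told apart.

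C1qa encodes the A chain of C1q, and its probe maps to chromosome 4, 136452409 to 136452468 (mm9). The control mice had a mean log2 signal of 10.78 ± 0.27 (SD, n = 4), with the second to the last at 10.80, 11.14 and 10.70 and the first below them. The signal was 11.53, 11.31, 11.76 and 11.42 in TrbE10 mice, and 11.37, 11.22, 11.37 and 11.27 in TrbE14 mice. Every mutant array lay above the highest control array. The log2 change was 0.72 in TrbE10 mice (SE 0.14, adjusted p = 0.0265) and 0.52 in TrbE14 mice (SE 0.14, adjusted p = 0.135).

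C1qc encodes the C chain (chromosome 4, 136445766 to 136445825, mm9). The control mice read 10.79, 10.91, 11.09 and 10.86, the TrbE10 mice 11.76, 11.35, 12.06 and 11.82, and the TrbE14 mice 11.31, 11.28, 11.58 and 11.49 (log2 signal). As for C1qa, no mutant array overlapped with control. Its log2 change was 0.84 in TrbE10 mice (SE 0.14, adjusted p = 0.0153) and 0.50 in TrbE14 mice (SE 0.14, adjusted p = 0.170).

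C1qb encodes the B chain (chromosome 4, 136436578 to 136436637, mm9). Its control mice lay close together at 9.90, 9.91, 9.76 and 9.89 (log2 signal). The TrbE10 mice read 10.84, 9.90, 10.51 and 10.64, so that 3 stood above control and the second lay within it. The TrbE14 mice read 9.96, 9.84, 10.51 and 9.99, with 1 array clearly above the others. The log2 change was 0.62 in TrbE10 mice (SE 0.19, adjusted p = 0.146) and 0.21 in TrbE14 mice (SE 0.19, adjusted p = 0.634).

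The second TrbE10 mouse was the lowest of its group for all 3 C1q chains, C4b, C3, Cfb, Cfi and C3ar1, but not for Cfp. It had the highest Nkx2-5 signal of its group, 11.67 against 11.21 to 11.27 in the other TrbE10 mice and 11.89 to 12.23 in control mice. A link between its Nkx2-5 and complement signals was not tested. Without the second TrbE10 mouse, 4 members were called higher in TrbE10 mice: C1qa, C1qb (log2 change 0.81, adjusted p = 0.0229), C1qc and C4b (1.24, adjusted p = 0.0263). The calls of C1qa and C1qc were both lost without the fourth control mouse, with adjusted p = 0.0839 and 0.0523. That of C1qa was also lost without control mouse 1 (0.0638), control mouse 2 (0.0583), or TrbE10 mouse 1, 3 or 4 (adjusted p = 0.0691, 0.0833 and 0.0562), its log2 change staying between 0.62 and 0.75 in these fits.

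**Figure D1:**
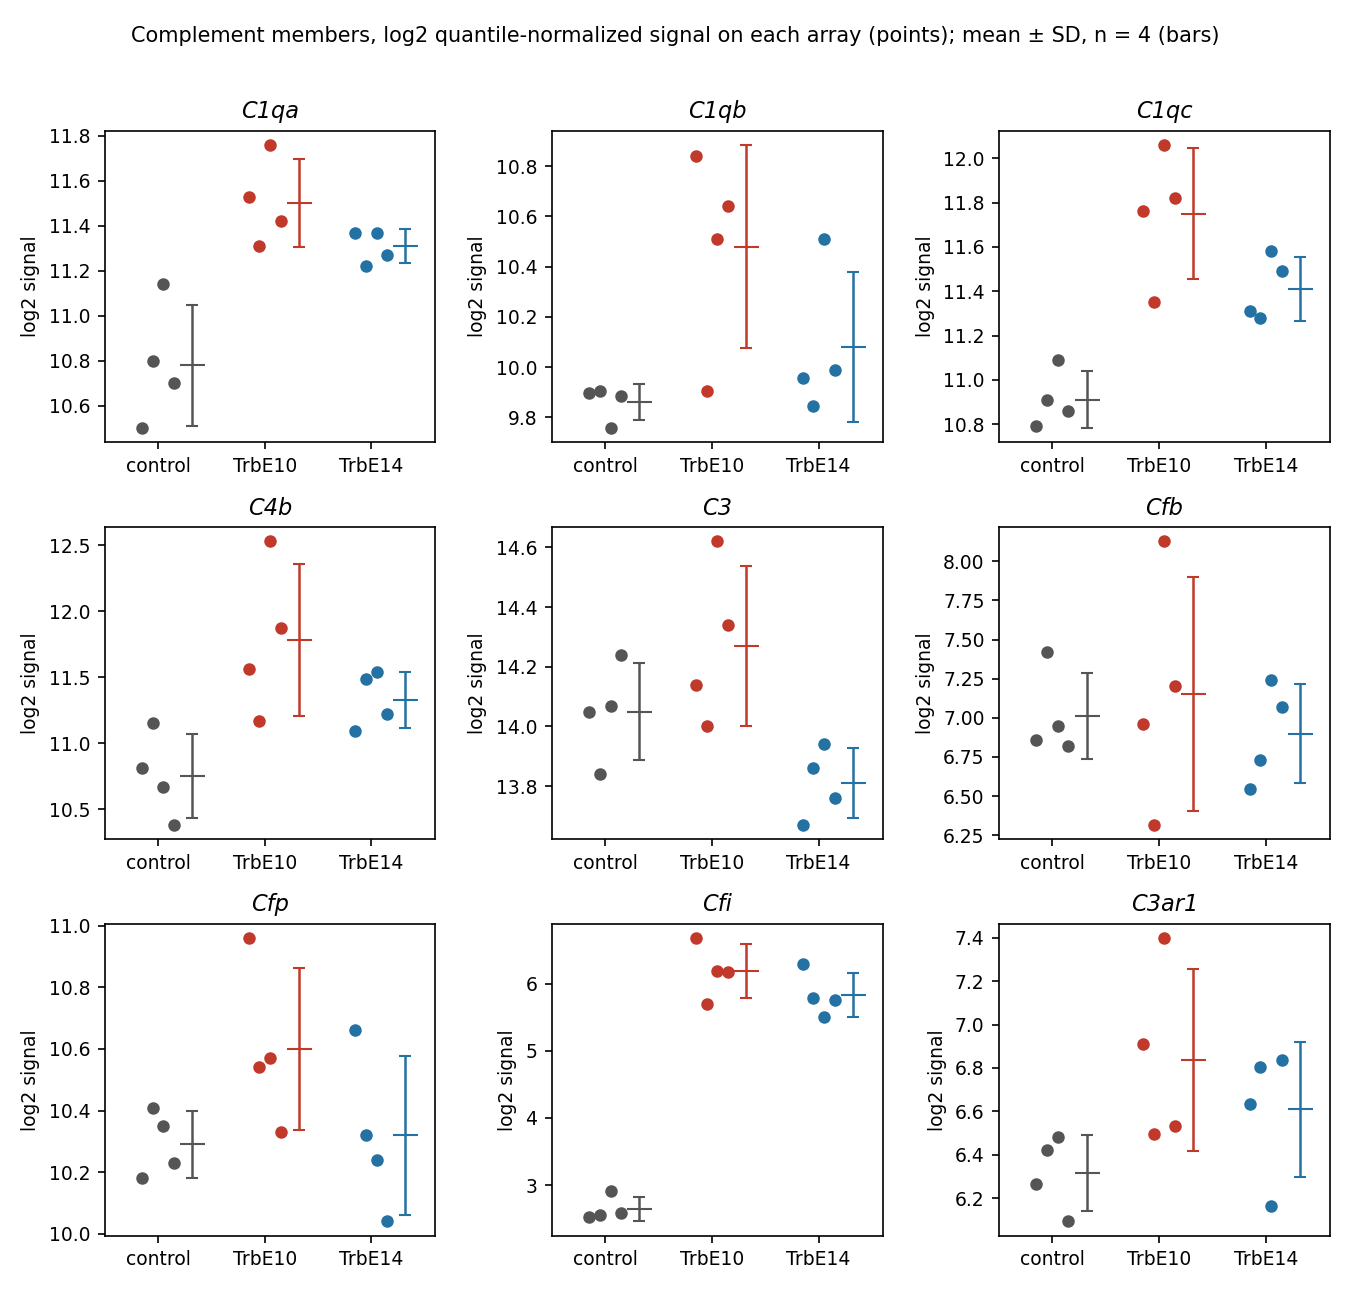
Log2 quantile-normalized signal (y axis, a separate scale for each gene) of the 9 members on each of the 12 arrays, by group, with bars for the mean and SD of 4 arrays. C1qa and C1qc stand above control on all 8 mutant arrays, Cfi goes from 2.52 to 2.92 in control mice to between 5.50 and 6.68 in the mutants, and the groups overlap for Cfb and Cfp.

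C4b encodes complement component C4, which C1q-bound proteases cleave, and its probe maps to chromosome 17, 34865328 to 34865387 (mm9). Its log2 signal was 10.81, 11.15, 10.67 and 10.38 in control mice, 11.56, 11.17, 12.53 and 11.87 in TrbE10 mice, and 11.09, 11.49, 11.54 and 11.22 in TrbE14 mice. TrbE10 mice lay above control without overlap, though the nearest arrays, at 11.17 and 11.15, nearly met, while the lowest TrbE14 mouse lay within the control range. The log2 change of 1.03 in TrbE10 mice (SE 0.26, adjusted p = 0.0765) and of 0.58 in TrbE14 mice (SE 0.26, adjusted p = 0.361) did not pass the threshold. C4a, a near-identical neighbour of C4b, had no probe under its own name, and whether the C4b probe also detects it was not tested.

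C3, on which all complement pathways converge, did not pass the test in either mutant (chromosome 17, 57343416 to 57343475, mm9). The control mice read 14.05, 13.84, 14.07 and 14.24, the TrbE10 mice 14.14, 14.00, 14.62 and 14.34, and the TrbE14 mice 13.67, 13.86, 13.94 and 13.76 (log2 signal). Its log2 change was 0.22 in TrbE10 mice (95% confidence interval -0.08 to 0.52, adjusted p = 0.450) and -0.24 in TrbE14 mice (-0.54 to 0.06, adjusted p = 0.449). Both mutant groups overlapped with control, and their changes had opposite signs.

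Cfb, which supplies the protease of the alternative pathway, had the largest SD of the 9 members within TrbE10 mice, 0.75 on the log2 scale. It read 6.86, 7.42, 6.95 and 6.82 in control mice, 6.96, 6.32, 8.13 and 7.20 in TrbE10 mice, and 6.55, 6.73, 7.24 and 7.07 in TrbE14 mice (log2 signal). The 3 groups overlapped, and the log2 change was 0.14 (95% confidence interval -0.56 to 0.84, adjusted p = 0.868) and -0.12 (-0.82 to 0.59, adjusted p = 0.889). Without the third TrbE10 mouse the first value was -0.19.

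Cfp encodes properdin, which stabilises the C3 convertase of the alternative pathway, and lies on chromosome X (20502742 to 20502801 for the probe, mm9). Its log2 signal was 10.18, 10.41, 10.35 and 10.23 in control mice, 10.96, 10.54, 10.57 and 10.33 in TrbE10 mice, and 10.66, 10.32, 10.24 and 10.04 in TrbE14 mice. The groups overlapped, with log2 changes of 0.31 (SE 0.15, adjusted p = 0.344) and 0.02 (SE 0.15, adjusted p = 0.954).

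C3ar1, the receptor for C3a, is expressed on myeloid cells (probe on chromosome 6, 122798222 to 122798281, mm9). The control mice read 6.26, 6.42, 6.48 and 6.09, the TrbE10 mice 6.91, 6.50, 7.40 and 6.54, and the TrbE14 mice 6.63, 6.81, 6.16 and 6.84 (log2 signal). The TrbE10 mice lay just above control, the nearest arrays being at 6.50 and 6.48, and 3 of the 4 TrbE14 mice did. The log2 change was 0.52 (SE 0.21, adjusted p = 0.254) and 0.30 (SE 0.21, adjusted p = 0.542).

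Taking the 8 members other than Cfi as a list, 8 were higher on average in TrbE10 mice with a median log2 change of 0.57, and 6 were higher in TrbE14 mice with a median of 0.25. The median over all genes tested was -0.02 and -0.03. In TrbE10 mice 4 members (C1qa, C1qc, C4b and C3ar1) had no overlap with control, where 4.94% of all genes were higher in this way, and in TrbE14 mice 2 members (C1qa and C1qc) had none, where 4.65% of all genes were. The 2 comparisons share the control mice, and the members were picked with results of these arrays known.

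**Figure D2:**
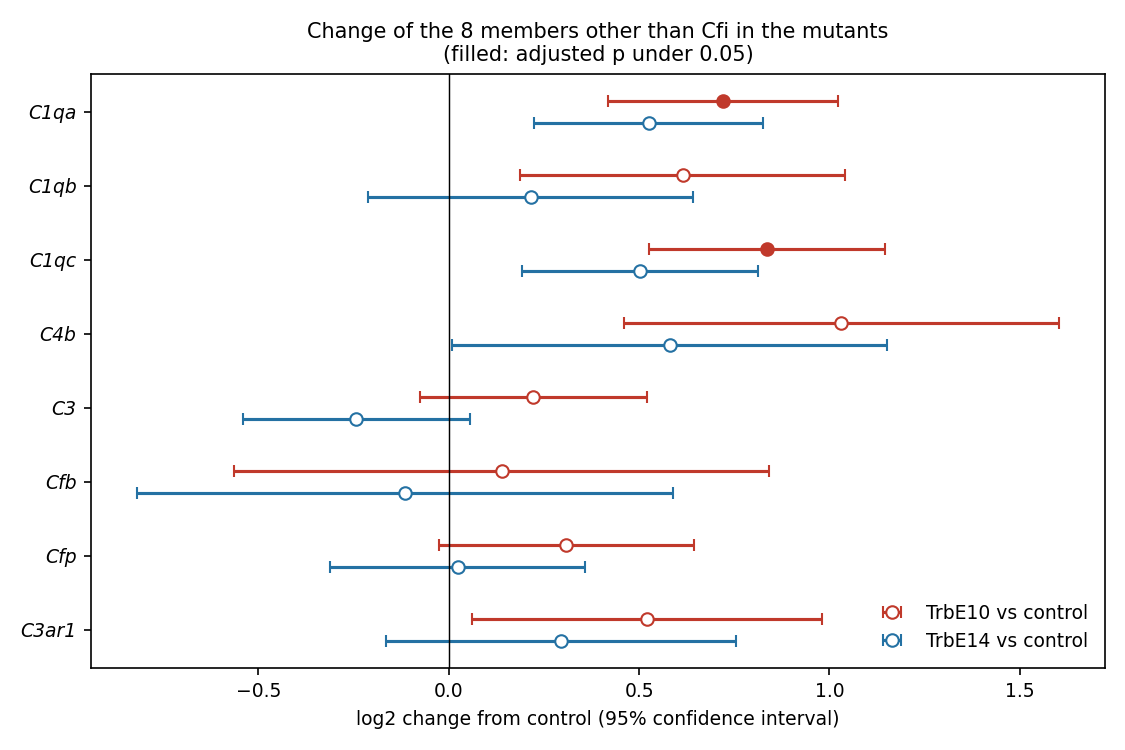
Log2 change from control (x axis) with its 95% confidence interval for the 8 members other than Cfi, TrbE10 in red and TrbE14 in blue, with filled points for an adjusted p under 0.05. The filled points are C1qa and C1qc in TrbE10 mice, at 0.72 and 0.84, and the intervals of Cfb and Cfp span 0 in both mutants.

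Cfi, the protease that inactivates C3b and C4b, was at background in control mice and measured in every mutant mouse. Its probe maps to chromosome 3, 129578165 to 129578224 (mm9). The log2 signal was 2.52, 2.55, 2.92 and 2.58 in control mice, where none of the 4 arrays was well above background. It was 6.68, 5.70, 6.19 and 6.17 in TrbE10 mice and 6.29, 5.78, 5.50 and 5.76 in TrbE14 mice, where all 8 arrays were. The lowest signal that counted as well above background lay between 4.19 and 4.80 on the 12 arrays. Measured against that limit, Cfi was higher at least 3.07-fold in TrbE10 and at least 2.41-fold in TrbE14, with the mutant mean set against the mean of the limits of the control arrays. These bounds hold for the processed signal used here. Other treatments of the background gave smaller differences than the bounds. With normexp correction the log2 change was 0.97 and 0.74, and in the authors' normalized values, where control mice read 5.06 to 5.09 near the lowest value of the whole table, 5.04, it was 1.15 and 0.75. The control and mutant mice stayed apart in all 3 treatments.

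**Figure D3:**
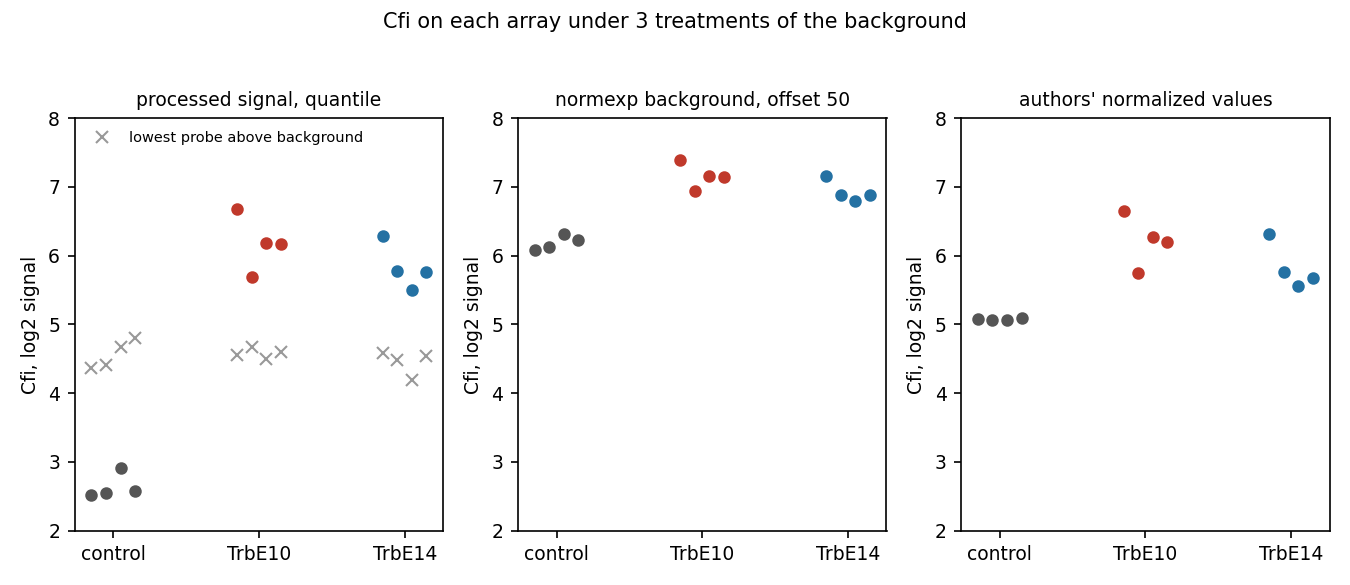
Log2 signal of Cfi (y axis) on each of the 12 arrays by group under 3 treatments of the background, with crosses in the left panel for the lowest signal on each array that was well above background. Control mice lie below every mutant mouse in each panel, and the distance is largest in the left panel, where control mice read 2.52 to 2.92, below the crosses.

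The genes whose log2 signal over the 12 arrays was most like that of Cfi were Vsig4 (Pearson r = 0.994), Csf1r (0.982), Cd207 (0.981), Fam38b (0.981) and Stim1 (0.974). These values describe a shared step between control and mutant mice, since the control and mutant values of Cfi form 2 separate clusters. Csf1r, the receptor for macrophage colony-stimulating factor, differed from control by 1.14 in TrbE10 mice and 0.92 in TrbE14 mice (log2), far less than Vsig4. For C1qa the most similar were Cybb (r = 0.978), Efnb2 (0.961), Sln (0.958), Apoe (0.955) and Slc15a3 (0.946), and Cybb, a subunit of the phagocyte NADPH oxidase, differed by 1.14 and 0.79.

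Between the mutants, each of the 9 members was higher on average in TrbE10 than in TrbE14 mice, and none was called. Over all genes tested 0% were called in this comparison, with 1417 probes at an unadjusted p under 0.05. The median difference of the members was 0.33 on the log2 scale, against 0.005 over all genes. The difference for Cfi was 0.35 (95% confidence interval -0.11 to 0.81, adjusted p = 0.930), so that the mutants were not shown to differ in its level. C3 was the member whose mutant groups did not overlap, where 1.64% of all genes were higher in TrbE10 mice in this way. Its lowest TrbE10 mouse read 14.00 and its highest TrbE14 mouse 13.94, and the difference of 0.46 (SE 0.14) had an unadjusted p of 0.00555 and an adjusted p of 0.595. A second C3 probe gave 0.39 with overlapping arrays.

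The rest of the pathway was read from a list of 50 further symbols, of which 43 were on the array and 28 passed the filter. In TrbE10 mice 5 of the 28 were called higher and 1 lower, and in TrbE14 mice 2 were called higher and none lower. Over all genes 1.93% and 0.66% were called in either direction, and 0.649% and 0.128% were called lower. Their median log2 change was -0.02 in TrbE10 mice and -0.01 in TrbE14 mice, and no gene was called between the mutants. In TrbE10 mice 5 lay above and 2 below control without overlap, where 4.94% and 5.63% of all genes lay above and below. In TrbE14 mice 4 lay above and 1 below, where 4.65% and 5.43% of all genes did. Between the mutants Itgax and Itgb2 were higher in TrbE10 mice without overlap (0.72 and 0.24, adjusted p = 0.769 and 0.708), where 1.64% of all genes were. None was lower in this way, where 1.73% of all genes were. Itgax lay near background, being well above it on 3 of 4 TrbE14 arrays. Its difference was 0.16 with normexp correction and 0.53 in the authors' normalized values.

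Among the receptors, 2 of 10 were called in TrbE10 mice and 1 in TrbE14 mice. Vsig4, also known as CRIg, is a receptor of tissue macrophages that binds C3b and blocks the alternative pathway. It read 7.09, 7.38, 7.37 and 7.25 in control mice, 11.62, 10.91, 11.65 and 11.25 in TrbE10 mice, and 11.29, 11.12, 10.84 and 11.11 in TrbE14 mice (log2 signal). It rose 17.0-fold in TrbE10 mice (log2 change 4.09, SE 0.16, adjusted p = 4.19e-07) and 14.1-fold in TrbE14 mice (3.82, SE 0.16, adjusted p = 8.75e-07). Itgb2, the beta chain shared by complement receptors 3 and 4, rose by 0.36 in TrbE10 mice (adjusted p = 0.0458), with a change of 0.13 in TrbE14 mice (adjusted p = 0.492). That call was lost whichever of the 12 arrays was left out (adjusted p = 0.0539 to 0.110). The probes of its partner Itgam disagreed: the brighter gave -0.09 in TrbE10 mice (adjusted p = 0.729) and the dimmer 0.60 (adjusted p = 0.0392). C5ar1, the receptor for C5a, was well above background on 1 TrbE10 array and 3 TrbE14 arrays and on no control array. Against the limit of background it was at least 1.05-fold higher in TrbE14 mice for the processed signal. No fold is given for TrbE10 mice, where most arrays were below that limit too. In the authors' normalized values the log2 change was 0.07 in TrbE14 mice and -0.005 in TrbE10 mice. The probe passed the filter through the TrbE14 arrays alone, so no p is given for it.

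Of the 8 regulators measured, 2 rose and 1 fell in TrbE10 mice by limma. None was called by limma in TrbE14 mice, where 4 had an unadjusted p under 0.05 and SAM, the method of the study, called Cfhr2 and Vtn. Of all 24593 probes, 3340 had an unadjusted limma p under 0.05 in TrbE14 mice, and SAM called 326 probes. Cfhr2, a complement regulator, rose by 0.97 in TrbE10 mice (SE 0.19, adjusted p = 0.0318) and its change in TrbE14 mice was 0.79 (SE 0.19, adjusted p = 0.107). Whether its probe also detects related genes was not tested. Serping1, the inhibitor of the C1 proteases, rose by 0.51 in TrbE10 mice (SE 0.11, adjusted p = 0.0413), with 0.38 in TrbE14 mice (adjusted p = 0.175). SAM did not call Serping1 in TrbE10 mice, and its second probe gave 0.55 there (adjusted p = 0.0650). Cfhr2 and Serping1 lay above control on all 8 mutant arrays. The call of Cfhr2 was lost without control mouse 1, 3 or 4 or TrbE10 mouse 1, 3 or 4 (adjusted p up to 0.0991), and that of Serping1 in 11 of the 12 fits with 1 array left out (up to 0.119), the exception being the fit without the second TrbE10 mouse.

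Vtn encodes vitronectin, which blocks the membrane attack complex. It read 10.90, 10.54, 10.80 and 10.81 in control mice, 9.91, 10.30, 9.48 and 9.83 in TrbE10 mice, and 10.01, 10.25, 10.16 and 10.01 in TrbE14 mice (log2 signal), and every mutant array was below every control array. It fell by 0.88 in TrbE10 mice (SE 0.15, adjusted p = 0.0184), and the change in TrbE14 mice was -0.66 (SE 0.15, adjusted p = 0.0967). Cd55, a membrane inhibitor of the convertases, was at -0.79 in TrbE10 mice without overlap (adjusted p = 0.0925) and at -0.63 in TrbE14 mice (adjusted p = 0.246). The call of Vtn was lost without control mouse 1, 3 or 4 or TrbE10 mouse 4 (adjusted p = 0.0555, 0.0551, 0.0589 and 0.0518).

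Among the initiators, 1 of 9 was called in each mutant, and it was the same gene. Colec11, a collectin that starts the lectin pathway, rose by 0.48 in TrbE10 mice (SE 0.10, adjusted p = 0.0358) and by 0.52 in TrbE14 mice (SE 0.10, adjusted p = 0.0438). Its control mice read 11.11 to 11.41 and its mutant mice 11.62 to 11.96 (log2 signal). With 1 array left out the call held in 3 of 12 fits in TrbE10 mice and in 2 of 12 in TrbE14 mice, with an adjusted p of up to 0.104 and 0.111. C2, the partner of C4b in the classical convertase, had a log2 change of 0.88 in TrbE10 mice (adjusted p = 0.162) and was called there without the second mouse (1.24, adjusted p = 0.00176).

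The largest changes that were not called also included Masp2 and Cfd. Masp2, a protease of the lectin pathway, was at -1.12 and -1.77 relative to control (SE 1.01, adjusted p = 0.629 and 0.460) and ranged from 2.84 to 6.58 (log2 signal) within TrbE10 mice. Cfd, factor D of the alternative pathway and a product of adipocytes, was at -1.52 and -0.27 (SE 0.87, adjusted p = 0.415 and 0.907) and ranged from 5.42 to 10.31 within TrbE10 mice. Of the 7 terminal components on the array only C8g passed the filter, with changes of -0.33 and -0.15 (adjusted p = 0.489 and 0.775), and it is named for that. Mbl2, Fcnb, Colec10, Masp1, C8a, C8b, C9 and C4bp were not well above background on any of the 12 arrays, and Mbl1, Cd46, Hc, Colec12, Cd59b, C6 and C7 were on 1 to 5 arrays without passing the filter.

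**Figure D4:**
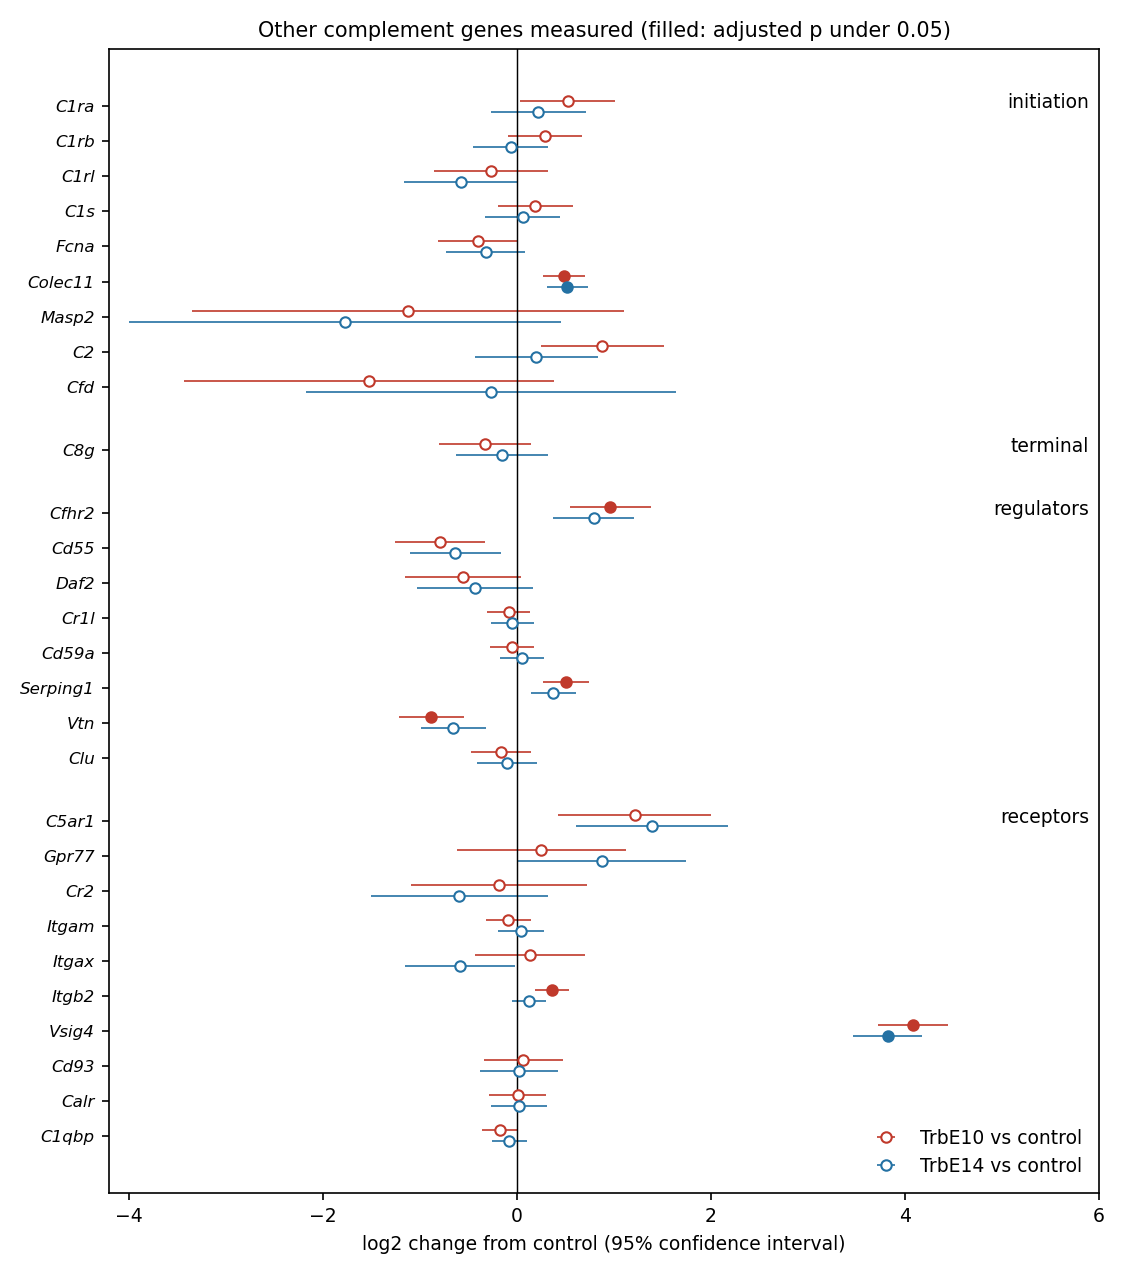
Log2 change from control (x axis) with its 95% confidence interval for the 28 other complement genes that passed the filter, grouped by role, TrbE10 in red and TrbE14 in blue, with filled points for an adjusted p under 0.05. Vsig4 stands apart at 4.09 and 3.82, Cfhr2 and Serping1 lie to the right of 0, and Vtn and Cd55 to the left. C5ar1 was at background on every control array, so its point is no measure of size.

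Markers of cell types that can make complement were read on the same arrays. All 16 macrophage markers on the array, none of them a complement gene, passed the filter. In TrbE10 mice 5 were called higher, and 15 were higher with a median log2 change of 0.66. In TrbE14 mice none was called, and 14 were higher with a median of 0.37. Over all genes tested 1.28% and 0.533% were called higher in TrbE10 and TrbE14 mice, and 8151 and 7954 of 18021 were higher. Timd4 was well above background on no control array and on 3 arrays of each mutant. Cd163 was so on 2 control, 3 TrbE10 and 2 TrbE14 arrays. Both count among the higher markers and enter the mean used below with values at background. The summed signal of the list was 7227 to 10038 in control mice, 11984 to 13652 in TrbE10 mice, all above control, and 8895 to 11176 in TrbE14 mice, which overlapped with control. Relative to the mean log2 signal of these markers on the same array, the change from control was 0.09 and 0.15 for C1qa, -0.02 and -0.16 for C1qb, and 0.20 and 0.13 for C1qc in TrbE10 and TrbE14 mice. It was 0.39 and 0.20 for C4b, -0.12 and -0.08 for C3ar1, and -0.33 and -0.35 for Cfp. For C3 it was -0.41 and -0.62, and for Cfb -0.50 and -0.49. For Cfi it was 2.91 and 2.81, no measure of size, since Cfi was at background in control mice. The part of macrophages in these results was not tested.

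**Figure D5:**
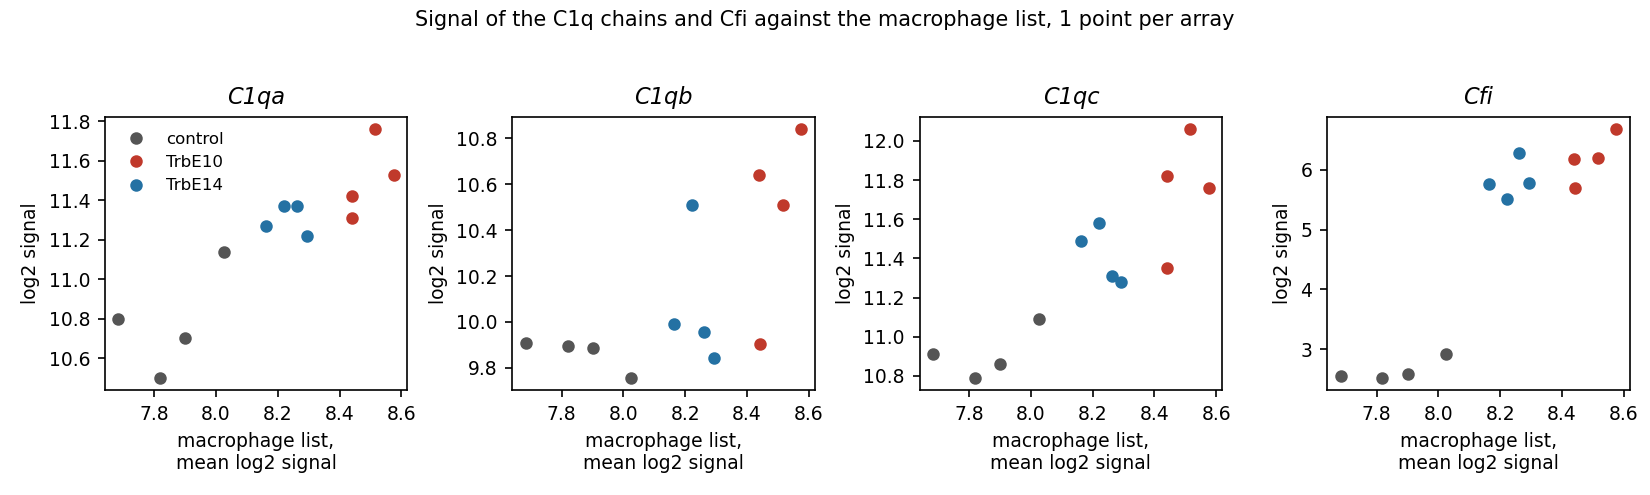
Log2 signal of C1qa, C1qb, C1qc and Cfi (y axes) against the mean log2 signal of 16 macrophage markers (x axis), 1 point per array, with control in grey, TrbE10 in red and TrbE14 in blue. The control arrays lie at 7.68 to 8.03 on the x axis, TrbE14 at 8.16 to 8.29 and TrbE10 at 8.44 to 8.58, and Cfi steps up between the control arrays and the others.

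Other cell types were checked in the same way, where 1.28% and 0.533% of all genes were called higher in TrbE10 and TrbE14 mice. Fibroblast markers had medians of 0.44 in TrbE10 mice and 0.42 in TrbE14 mice, with 1 of 10 called higher in each, and their summed signal was 81323 to 94171 in control, 97646 to 116030 in TrbE10 and 102567 to 122088 in TrbE14 mice. Endothelial and endocardial markers had medians of 0.24 and 0.32, with 3 and 1 of 10 called higher, and their summed signal was 14852 to 18561, 21940 to 28497 and 23090 to 27821. In the mesothelial list 6 of 10 markers were measured, all 6 higher in both mutants, with medians of 1.09 and 0.91. Among the 6 was Krt19, a keratin of epithelial and mesothelial cells, named after its values were seen. It was well above background on 1 control array and on all 8 mutant arrays. Its probe thus passed the filter through the mutant groups alone, so no p or call is given for it. The count and medians include Krt19, and none of the other measured mesothelial markers was called. The summed signal of the mesothelial list was 523 to 1172 in control, 1202 to 2981 in TrbE10 and 1226 to 2590 in TrbE14 mice, while Upk1b, Lrrn4 and Bnc1 were at background on every array. The part of these cells was not tested.

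The hepatocyte genes Alb, Apoa1 and Cps1 stayed at background throughout, and the 6 hepatocyte markers measured had medians of 0.02 and 0.17 with none called by limma. Their summed signal was 1585 to 1788 in control mice, 1712 to 4281 in TrbE10 mice and 1522 to 2301 in TrbE14 mice, so that both mutants overlapped with control while single arrays lay above it. The summed signal of the adipocyte markers was 1099 to 2546 in control mice, 95 to 1738 in TrbE10 mice and 758 to 1985 in TrbE14 mice, and 1 of the 5 measured is Cfd itself. The neutrophil markers Mpo and Ngp were at background on every array, and none of the 5 measured was called, with summed signals of 284 to 1617 in control, 573 to 1958 in TrbE10 and 435 to 2079 in TrbE14 mice.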

How the data were processed

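The authors deposited scanner output of Agilent Feature Extraction (version 10.5 in the submitters' processing notes): the intensity of each of 62976 spots, 3671 of them controls, with flags. The authors also deposited 22114 rows of quantile-normalized log2 values, filtered on background per the study's methods. The lowest of these values is 5.04. Here the processed intensities of the 55681 probes were log2-transformed without outlier spots, quantile normalized and averaged by probe. A probe passed when well above background on 3 of 4 arrays in at least 1 group, and 24593 probes of 18021 gene names did. Names are those of the array. A gene was read from its brightest probe.

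All 3 groups were fitted together with limma (version 3.58.1, R 4.3.3), with p-values adjusted by Benjamini-Hochberg over all probes of a comparison. All adjusted p-values are from limma unless stated otherwise, and the fit was first tried on simulated data with known changes. The methods name SAM, used here as an alternative. Animals were separate mice, and their number limits precision.

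Named genes were the 9 members, other complement genes that were called, did not overlap between a mutant and control, or were among the 4 largest changes not called, Nkx2-5, and the 5 genes most correlated with Cfi and with C1qa. Members and lists were chosen with earlier results of these data known. Alternatives were another scaling, background correction, filter, the authors' values, the groups in the fit, the replicate number as a block, sex, SAM, the probe rule and leaving out each array. Promoter windows came from a RefSeq table on GRCm38.p6, and probe positions (mm9) from the scanner files. No genome or protein sequence was used. Some complement genes are not reported here.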

Additional observations from a re-analysis of the deposited data

Results flagged for a closer look

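In 5 of the 63 groups of 4 arrays tested (21 genes, 3 groups each), 1 array stood apart, its gap to the nearest array divided by the group's whole range being above Dixon's 95% critical value for 4 samples. Chance flags about 5% of such groups. For C1qb it was the third control mouse, with a log2 signal of 9.76 against 9.89 to 9.91 in the others (ratio 0.857). For Cfi it was also the third control mouse, at 2.92 against 2.52 to 2.58 (ratio 0.835), all of them below the limit of background. For Nkx2-5 it was the second TrbE10 mouse, at 11.67 against 11.21 to 11.27 (ratio 0.861), and for C5ar1 the same mouse, at 4.08 against 4.55 to 4.62 (ratio 0.866). For Masp2 it was the fourth TrbE10 mouse, at 2.84 against 6.31 to 6.58 (ratio 0.928).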

How the results depend on the processing

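Over the alternatives run, 574 of 591 member values kept their side of the threshold, or moved by less than the replicate spread where no test was made. C1qa and C1qc in TrbE10 mice were the only calls that could be lost, so most of the 574 were values not called in the first place. In all 9 calls were lost, 4 were gained, and 4 values of Cfi moved with the background treatment given in the report. Signs differed from the reported ones in 9 values, 5 of Cfb and 4 of Cfp, none of them called. Of the members other than Cfi, 2 were called higher in TrbE10 mice as reported, 1 (C1qc) without a filter and 1 (C1qc) with only the 2 groups compared. In TrbE14 mice none was called, against 1 (C1qc) by SAM and 1 (C1qa, log2 change 0.65, adjusted p = 0.0464) with sex as a covariate, where Y-linked signal was present in 1 control, 2 TrbE10 and 3 TrbE14 mice. The other complement genes called in TrbE10 mice numbered 6, against 1 without a filter, 1 with only the 2 groups and 1 with the replicate number as a block (Vsig4 in each). In TrbE14 mice they numbered 2, against 1 without a filter, 1 (Vsig4) with the replicate block, and 4 (Cfhr2, Colec11, Vsig4 and Vtn) both by SAM and with the sex covariate. With only the 2 groups they were also 2, but Colec11 was lost (adjusted p = 0.0724) and Vtn gained (adjusted p = 0.0450). Leaving out each array in turn, the members called in TrbE10 mice ranged from 0 (without the fourth control mouse) to 4 (without the second TrbE10 mouse), and the other complement genes called ranged from 1 to 6 in TrbE10 mice and from 1 to 4 in TrbE14 mice. Between the mutants no member and no other complement gene was called under any alternative run. In the 12 fits without 1 array C1qa was called in TrbE10 mice in 6, C1qc in 11, Vtn in 8, Cfhr2 in 6, Colec11 in 3 (in 2 for TrbE14), Serping1 in 1, Itgb2 in 0 and Vsig4 in 12. Same-numbered replicates did not deviate together in every pair (correlations of -0.24 to 0.48), so the numbers were not taken to pair the mice, and with the block C1qa and C1qc were called as before. Over all probes 416 were called in TrbE10 and 148 in TrbE14 mice, against 197 without a filter and 263 with only the 2 groups in TrbE10 mice, 240 with normexp and 326 by SAM in TrbE14 mice, and 159 to 709 and 83 to 190 when 1 array was left out. The causes of these differences were not tested. The 75th percentile scaling shifted the median of all genes to -0.08 in TrbE10 and -0.06 in TrbE14 mice. Low signal limits Cfi, C5ar1, Itgax and Masp2, which lay at or near background on some arrays.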
